A study of Mus musculus with 4 samples.

Results

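The genes described here encode the proteins of the mitochondrial ribosome, measured in regenerating liver of nude mice on 4 single-colour Affymetrix arrays. They were found by name, as all probe sets whose single gene symbol in the platform annotation begins with Mrpl or Mrps and a number. That gave 156 probe sets for 76 genes, out of 34945 singly named probe sets for 18193 genes. The arrays fall into an OGFRL1 group (n = 2) and an EGFP group (n = 2). In the OGFRL1 group, BALB/c nu/nu mice had human bone marrow mesenchymal stem cells carrying OGFRL1 placed in the spleen, and in the EGFP group the cells carried EGFP, a green fluorescent protein, instead. All mice of both groups had been given carbon tetrachloride, a hepatotoxin, 23 times at 0.25 ml per kg body weight, and all received 1000000 human cells. Partial hepatectomy was done on day 21 and the liver was taken 8 days after it. The labels give no age or sex, and whether each array stands for a mouse of its own is not stated. The spread behind every p-value is therefore that of the arrays alone and may be technical. The array was designed for mouse transcripts, and the transgenes in the human cells were not checked by it.

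Mitochondria keep a ribosome of their own, descended from that of bacteria, which translates the few messages of mitochondrial DNA into core subunits of the respiratory chain and of ATP synthase. Its RNA comes from mitochondrial DNA, while all of its proteins are encoded in the nucleus, made in the cytosol and imported. Many of the proteins belong to families shared with bacteria, and others were added in the mitochondrial lineage. The small subunit reads the message at the decoding centre, and the large subunit joins amino acids and holds the nascent chain against the inner membrane. Hepatocytes are rich in mitochondria.

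Signals were MAS5 intensities on a linear scale, with nearly the same trimmed mean on every array. Tests used log2(signal + 3.51), so every fold change is on that scale and understates the change of dim genes. Of 11942 genes with enough signal, 61 (0.511%) differed between OGFRL1 and EGFP livers at a limma adjusted p under 0.05. The 4 Cre and the 14 BioB, BioC and BioD probe sets, controls for RNA that standard protocols spike in, had mean log2 fold changes of -0.43 and -0.32. Hepatocyte markers had a summed signal of 37495 and 41537 on the OGFRL1 arrays against 71674 and 50455 on the EGFP arrays, with 5 of 5 tested markers below 0 and 0 called. Stellate cell markers summed to 452 and 497 in OGFRL1 livers against 226 and 265 in EGFP livers, with 3 of 4 above 0 and 0 called. Most of that difference came from Col1a1, at 119.6 and 177 against 26.8 and 42.1, and Acta2 (log2 fold change 1.15), while Des had 0.29 and Lrat -0.077. Cycling markers summed to 1131 and 1453 against 609 and 317, with 3 of 3 above 0 and 0 called. Endothelial markers were below 0 in 4 of 4, macrophage markers in 3 of 4 and cholangiocyte markers in 2 of 4, with 0 called. For lymphocyte and erythroid cells only Nkg7 (-1.07) and Alas2 (-1.45) were tested, and neither was called. The part of these shifts in the values below was not tested, and in whole tissue fewer cells of a type and less RNA per cell cannot be told apart.

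All 76 genes of the mitochondrial ribosome passed the filter on low signals. At a limma adjusted p under 0.05, 0 of them differed between OGFRL1 and EGFP livers, beside 0.511% of all genes tested. Their smallest adjusted p was 0.212. At an unadjusted p under 0.05 there was 1 gene, Mrps6, or 1.32% of members, whereas 15.3% of all genes tested passed that mark. The median log2 fold change over the members was -0.0033, beside 0.042 over all genes tested, with 37 members above 0 and 39 below. Fold changes lay between -0.43 and 0.46, and their interquartile range was 0.23 against 0.44 for all genes tested. The median absolute log2 fold change was 0.11 for members and 0.22 for all genes tested. In 48 of the 76 members the fold change was no larger than its standard error. A p above the threshold does not show that levels were equal, so the intervals matter more here. The 95% intervals of the members reached 0.30 to 0.54 to either side, and the outermost bounds were -0.96 and 0.82. In this fit every one of the 76 intervals therefore lay within a log2 change of 1 in either direction. So did 72.2% of the intervals over all genes tested. Intervals under other settings were not set against that limit. With 1 OGFRL1 array left out, the standard error of Mrpl37 rose from 0.22 to 0.31. The members were brighter than most genes tested (median signal 410.5 against 112), and these spreads and shares were not compared among genes of like signal. Under every setting that kept all 4 arrays, 0 members were called. The log2 fold change of Mrpl37 depended on the EGFP array used. It was -0.72 ± 0.17 (SE) without EGFP array 2, which leaves EGFP array 1 alone in its group, and -0.13 without EGFP array 1.

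**Figure D1:**
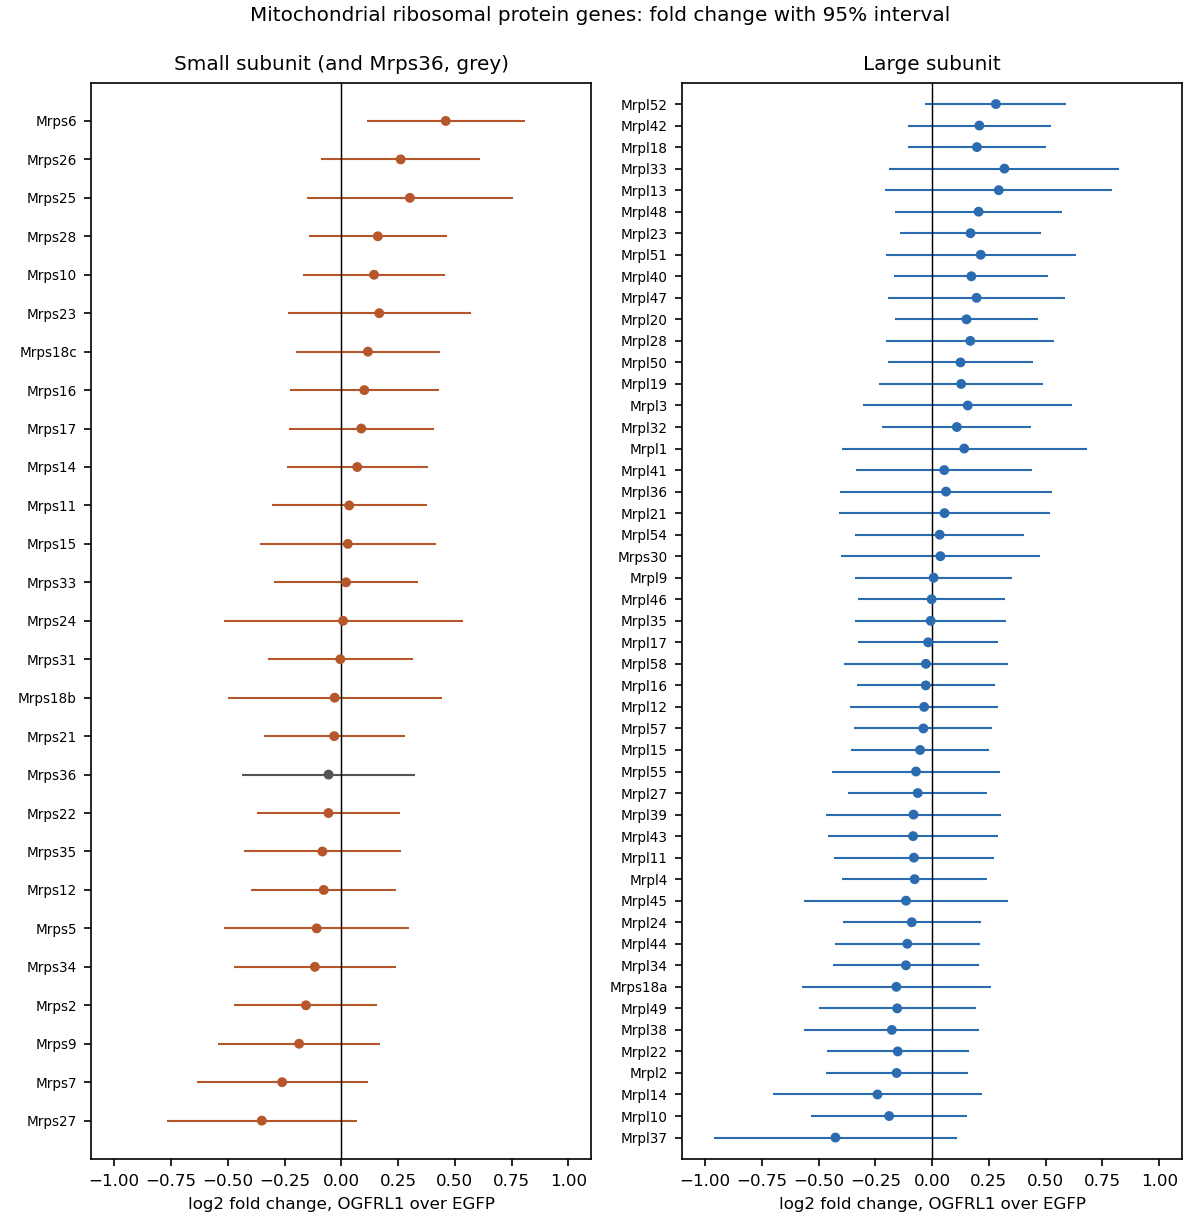
Log2 fold changes of OGFRL1 over EGFP livers (points) with 95% intervals from limma (lines) for the 26 small subunit genes and Mrps36 on the left and the 49 large subunit genes on the right, ordered by moderated t. Points spread on both sides of 0 between -0.43 and 0.46, and 75 of the 76 intervals contain 0, the exception being Mrps6.

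Groups that do not overlap, in which the OGFRL1 pair lay wholly above or wholly below the EGFP pair, were seen for 33 of 76 members, close to the 47.5% of all genes tested. Both OGFRL1 arrays were above both EGFP arrays in 15 members (19.7%, against 27% of all genes tested) and below them in 18 (23.7%, against 20.5%). The members thus split about evenly by direction. Subunits were assigned by the structure of the mammalian mitoribosome rather than by the letter in the symbol, since Mrps18a and Mrps30 sit in the large subunit. On that basis the median log2 fold change was 0.014 for the 26 small subunit genes and -0.0062 for the 49 large subunit genes. Families shared with bacteria had a median of 0.032 in the small subunit (16 genes) and -0.0062 in the large subunit (29 genes). Proteins counted as particular to mitochondria had medians of -0.017 (10 genes) and -0.015 (20 genes). That count takes in Mrps18b in the small subunit and Mrps18a in the large, although both belong to the S18 family shared with bacteria. These medians are a description, and the differences between them were not tested.

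In the small subunit the gene farthest from 0 was Mrps6, of the bacterial S6 family. Its signals were 410.2 and 385 on the OGFRL1 arrays and 309 and 268 on the EGFP arrays. Both OGFRL1 arrays were higher, and the log2 fold change was 0.46 ± 0.15 (SE), which did not pass over all genes (limma adjusted p = 0.212). Its other probe set gave 158 and 159 in OGFRL1 livers against 146 and 108 in EGFP livers, again without overlap. In the RefSeq table of GRCm38.p6 the span of Mrps6 overlaps that of Slc5a3, a myo-inositol transporter. Slc5a3, chosen after its values were seen, was at 99.4 and 117 in OGFRL1 livers and 79.9 and 82.3 in EGFP livers (0.40 ± 0.18, limma adjusted p = 0.352).

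Other small subunit genes on the high side were proteins found at the mitochondrial ribosome with no bacterial counterpart, Mrps26 and Mrps25, and Mrps28, related to bacterial S1. Mrps26 had signals of 379.6 and 327 in OGFRL1 livers and 288 and 299 in EGFP livers (0.26 ± 0.15). The mean over its probe sets gave -0.33, but that mean includes a probe set under the filter on low signals. Mrps25 was at 223 and 297 against 224 and 193 (0.30 ± 0.19), so that 1 OGFRL1 array lay within the EGFP range. Averaging its probe sets, again including a probe set under that filter, gave 0.067, and leaving out 1 array gave 0.097 to 0.51. Mrps28 was at 671 and 677 in OGFRL1 livers and 601 and 605 in EGFP livers, a log2 fold change of only 0.16 ± 0.13 with very tight pairs. For Mrps28 the groups were apart although the difference was near its standard error.

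On the low side of the small subunit stood Mrps27, an RNA-binding pentatricopeptide repeat protein and the dimmest member of all. It had 87.2 and 91.8 in OGFRL1 livers and 125 and 106 in EGFP livers (-0.35 ± 0.17, limma adjusted p = 0.407). Mrps7, a protein of the head of the subunit, was at 555 and 562 against 752 and 596 (-0.26 ± 0.16). For Mrps7 most of the distance came from EGFP array 1, without which it was -0.093. Mrps9 was at 142 and 139 in OGFRL1 livers and 157 and 164 in EGFP livers (-0.19 ± 0.15), while averaging its probe sets gave 0.014. Mrps2 was at 387 and 397 against 427 and 448 (-0.16 ± 0.13), and -0.27 when its probe sets were averaged. These 4, picked for the most negative moderated t, had no overlap between groups, and 0 of them passed the test. Both OGFRL1 arrays lay below both EGFP arrays in 20.5% of all genes tested.

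Mrps12, which lines the decoding centre, had 417 and 411 in OGFRL1 livers and 420.1 and 455 in EGFP livers (-0.077 ± 0.13). The brightest small subunit genes were Mrps34 and Mrps14. Mrps34, which is required for a stable small subunit, was at 1077 and 1044 in OGFRL1 livers and 1271 and 1039.6 in EGFP livers (-0.12 ± 0.15). Mrps14 was at 974 and 919 against 872 and 931 (0.07 ± 0.13). On these probe sets the groups overlapped in both genes. The other tested Mrps14 probe sets, with mean signals of 78.9 and 15.4, each had a log2 fold change of -0.33.

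The S18 family has 3 members in mammals, which take different places in the ribosome. Mrps18c, at the bacterial S18 position, had 786 and 872 in OGFRL1 livers and 759 and 766 in EGFP livers (0.12 ± 0.13). Mrps18b, also in the small subunit, was at 363 and 335 against 426 and 298 (-0.029 ± 0.20). Mrps18a, in the large subunit, was at 339 and 438 against 461 and 402 (-0.16 ± 0.17). Of the 3, only Mrps18c had groups that did not overlap, as was seen in 47.5% of all genes tested, and 0 of the 3 passed the test.

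In the large subunit the highest moderated t belonged to Mrpl52, a protein particular to mitochondria. Its signals were 1061 and 1048 in OGFRL1 livers and 829.8 and 907 in EGFP livers (0.28 ± 0.13, limma adjusted p = 0.369). The 2 other Mrpl52 probe sets with enough signal had log2 fold changes of 0.42 and 0.25, so its tested probe sets pointed the same way. Mrpl42, also particular to mitochondria, had 1131 and 1246 against 1014 and 1039.8 (0.21 ± 0.13). Its fold change was 0.029 when averaged with a probe set under the filter on low signals. Mrpl18, of a family that binds 5S RNA in bacteria, was at 592 and 598 in OGFRL1 livers and 522 and 515 in EGFP livers (0.20 ± 0.13). Mrpl33 was at 173 and 221 against 134 and 182 (0.32 ± 0.21), with overlapping groups. Its fold change was 0.10 to 0.53 with 1 array left out, and 0.033 when averaged with a probe set under that filter. The largest fold change of the 4 was thus in the gene with the largest standard error.

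Mrpl37 had the most negative fold change of all members. Its signals were 157 and 175 in OGFRL1 livers and 276 and 181 in EGFP livers (-0.43 ± 0.22, limma adjusted p = 0.429). EGFP array 2 lay close to the OGFRL1 arrays, and EGFP array 1 stood apart, without which the fold change was -0.13. Mrpl10, which anchors the stalk that recruits translation factors, was at 380.2 and 350.4 against 443 and 392 (-0.19 ± 0.14), and -0.10 without EGFP array 1. Mrpl14, at the face between the subunits, was at 289 and 312 in OGFRL1 livers and 422 and 299 in EGFP livers (-0.24 ± 0.19). Mrpl14 repeats the pattern of Mrpl37, and without EGFP array 1 its log2 fold change was 0.0043. Mrpl2, of a family next to the peptidyl transferase centre, was at 446 and 459.7 against 492 and 518 (-0.16 ± 0.13).

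The brightest member on every array was Mrpl12, the stalk protein that is also reported to bind mitochondrial RNA polymerase. It had 1933 and 2036 in OGFRL1 livers and 1915 and 2159.5 in EGFP livers (-0.035 ± 0.14). Mrpl39, the next brightest, was at 1728 and 1779 against 1639 and 2102 (-0.082 ± 0.16). For both, the EGFP arrays enclosed the OGFRL1 arrays. Mrpl44, which has the fold of a ribonuclease III, was at 362 and 347 in OGFRL1 livers and 393 and 373 in EGFP livers (-0.11 ± 0.13). Mrpl45, which contacts the inner membrane by the exit of the tunnel, was at 171 and 194 against 227 and 172 (-0.11 ± 0.19). Neither differed beyond its standard error. Mrpl41 was at 528 and 578 in OGFRL1 livers and 474 and 598 in EGFP livers (0.053 ± 0.16). Its other tested probe set, fitted singly, was at 377 and 380 against 510 and 447 (-0.33 ± 0.15), so the direction for Mrpl41 depends on the probe set. Mrps30, placed in the large subunit despite its letter, was at 251 and 273 against 296 and 220.0 (0.036 ± 0.18). Mrps36, matched by name but assigned in later work on other species to the 2-oxoglutarate dehydrogenase complex, was at 221 and 231 against 214 and 258 (-0.056 ± 0.16).

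Arrays of the EGFP group differed from each other by about as much as arrays of different groups did, and the OGFRL1 arrays by less. The median absolute log2 difference over the 76 members was 0.073 within the OGFRL1 pair and 0.13 within the EGFP pair. Between the groups it was 0.11 to 0.16, depending on the pair. EGFP arrays 1 and 2 differed by more than 0.5 in 5 members, and the OGFRL1 arrays in 0 members. The median member signal was 397 and 408 on the OGFRL1 arrays and 424 and 404 on the EGFP arrays. EGFP array 1 held the highest of the 4 values in 26 members and the lowest in 25, more often an extreme than the other arrays.

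**Figure D2:**
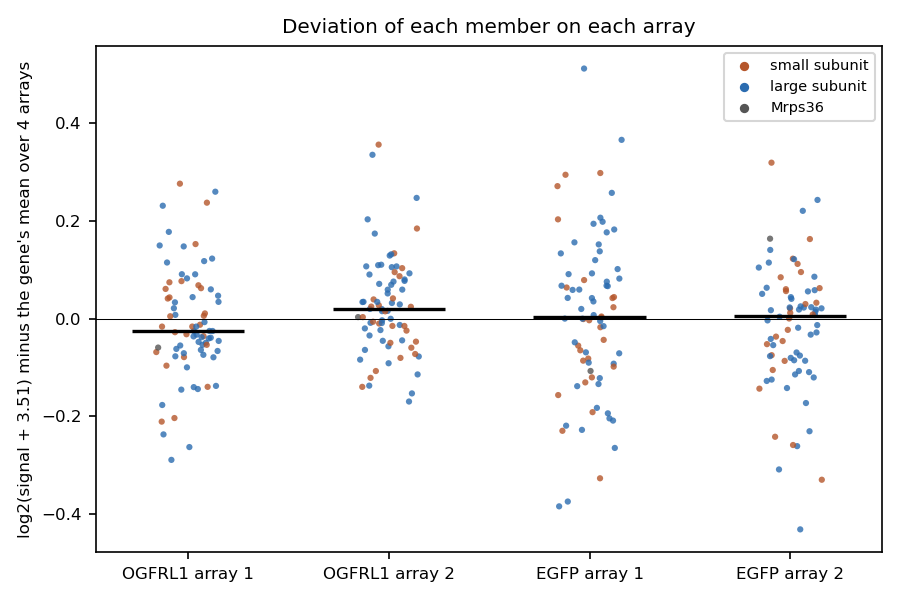
Deviation of each of the 76 members from its own mean over the 4 arrays, on the log2(signal + 3.51) scale, for OGFRL1 arrays 1 and 2 and EGFP arrays 1 and 2, with the median of each array as a bar. The array medians all lie close to 0, and points scatter most on EGFP array 1.

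The members were brighter than most genes tested. Their mean signals ran from 102 for Mrps27 to 2011 for Mrpl12, with a median of 410.5 against 112 over all genes tested. Within that range of signal lay 5733 tested genes. The range of the members' fold changes held 78.9% of all genes tested.

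**Figure D3:**
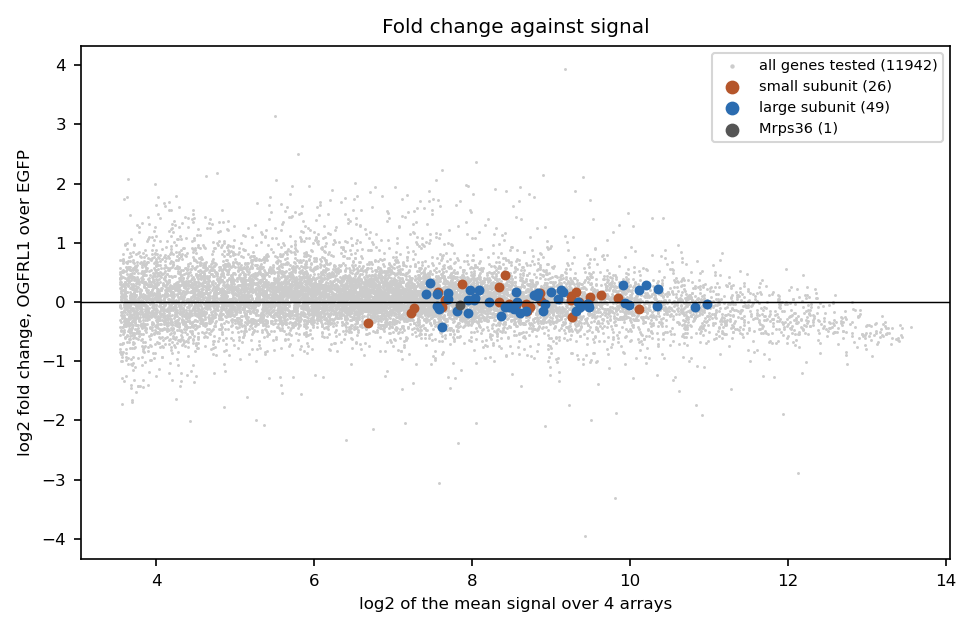
Log2 fold change of OGFRL1 over EGFP livers against the log2 of the mean signal over 4 arrays, for all 11942 genes tested (grey) and for the small subunit genes, the large subunit genes and Mrps36 (coloured). The members form a narrow band about 0 at middle to high signal, and the largest changes lie in other genes.

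Several members are represented more than once on the array, which gives further readings of the same RNA. Of the 156 probe sets, 132 had enough signal when fitted singly. At an unadjusted p under 0.05 there were 5 of them (14% of all probe sets tested passed that mark), and at an adjusted p under 0.05 there were 0 (0.336% of all probe sets tested). The 5 were probe sets of Mrps6 (0.46) and Mrpl52 (0.42) on the high side and of Mrpl34 (-0.81), Mrps23 (-0.71) and Mrps5 (-0.55) on the low side. The 3 on the low side had mean signals under 50, and the brighter probe sets that stand for those genes had log2 fold changes of -0.12, 0.17 and -0.11. Mrps23 had another tested probe set, with a mean signal of 143, at -0.26. The remaining tested probe sets of Mrps5 were at -0.20 and -0.22. Of 32 members with 2 or more probe sets tested, the signs differed in 16: Mrpl15, Mrps23, Mrpl3, Mrpl19, Mrpl11, Mrps14, Mrpl9, Mrpl41, Mrps9, Mrpl38, Mrps24, Mrpl28, Mrpl49, Mrpl1, Mrpl21 and Mrpl27. The widest gap was in Mrpl15, whose 7 tested probe sets ran from -0.98 to 0.38, both ends being probe sets with mean signals under 50. Of the 76 probe sets that stand for a gene, 9 belong to kinds that may also bind related transcripts, those of Mrps6 and Mrpl37 among them.

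The promoters of these genes are known to carry sites for ETS factors such as GABP, for NRF1 and for YY1, so these letters were counted in RefSeq promoters of GRCm38.p6, from 250 bases before the start site to 50 after it. Promoters were found for 67 members, 73 in all. Mrpl13, Mrpl15, Mrpl19, Mrpl38, Mrpl4, Mrpl54, Mrps28, Mrps34 and Mrps35 had none in the table. On either strand, the ETS letters CCGGAAG were in 34.2% of member promoters, 16.5% of promoters of genes tested and 8.86% of all promoters in the table. The NRF1 letters GCGCATGC, part of a longer site, were in 11%, 4.90% and 2.71%. The YY1 letters AANATGGCG were in 15.1%, 4.74% and 2.38%. At least 1 of the 3 was in 49.3% of member promoters and in 23.8% of those of genes tested. Matches for CCAAT (39.7% against 37.2% of genes tested) and for TATAAA (6.85% against 7.82%) differed little, and the median share of G and C was 58.7% against 60.3%. No test was made of these shares, and a match is not a shown binding site.

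**Figure D4:**
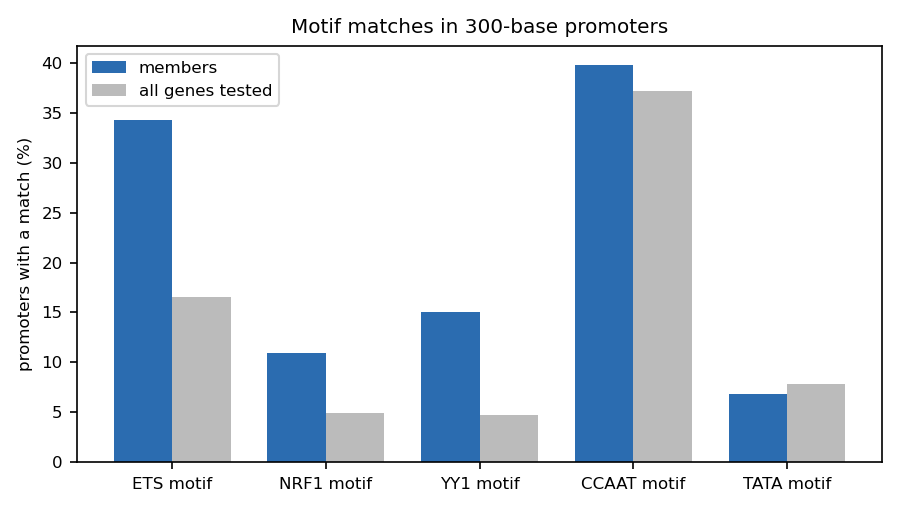
Share of 300-base promoters with a match on either strand to each of 5 motifs, for the 73 member promoters (blue) and the promoters of all genes tested (grey). The ETS, NRF1 and YY1 bars are taller for members, and the CCAAT and TATA bars are about level.

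Fold changes were then set out by motif, as a description with no test. The median log2 fold change was -0.018 in the 25 members with an ETS match and 0.0022 in the 42 without, -0.023 in 8 with and 0.0078 in 59 without an NRF1 match, and -0.0062 in 11 with and 0.0022 in 56 without a YY1 match. For CCAAT the median was 0.074 in 26 members with a match and -0.028 in 41 without, so the order was the other way round from the ETS, NRF1 and YY1 letters. Promoters are shown for the members at both ends of the ranking, Mrps6 and Mrps27, and for the other members described above that hold 2 kinds of match. Matches to the ETS, NRF1 or YY1 letters on either strand are in capitals, and each sequence reads 5′ to 3′ along the gene's strand with the start site after base 250. Mrps6 lies at chr16:92058086-92058385 (plus strand), Mrps27 at chr13:99344536-99344835 (plus), Mrpl33 at chr5:31613701-31614000 (plus), Mrps18a at chr17:46110754-46111053 (plus) and Mrps18b at chr17:35916391-35916690 (minus), all in GRCm38.p6.
Mrps6: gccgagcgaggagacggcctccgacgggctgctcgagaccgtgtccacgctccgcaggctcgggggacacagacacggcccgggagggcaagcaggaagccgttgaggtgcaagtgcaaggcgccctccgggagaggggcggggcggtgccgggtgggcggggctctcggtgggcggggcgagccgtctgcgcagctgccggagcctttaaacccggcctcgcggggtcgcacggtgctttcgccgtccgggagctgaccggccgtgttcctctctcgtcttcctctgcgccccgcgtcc
Mrps27: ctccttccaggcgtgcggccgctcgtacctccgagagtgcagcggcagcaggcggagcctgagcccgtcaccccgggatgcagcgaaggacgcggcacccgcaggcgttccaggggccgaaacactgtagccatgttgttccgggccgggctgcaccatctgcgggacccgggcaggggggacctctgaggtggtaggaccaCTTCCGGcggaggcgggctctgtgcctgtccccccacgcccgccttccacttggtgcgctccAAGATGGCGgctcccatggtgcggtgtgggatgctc
Mrpl33: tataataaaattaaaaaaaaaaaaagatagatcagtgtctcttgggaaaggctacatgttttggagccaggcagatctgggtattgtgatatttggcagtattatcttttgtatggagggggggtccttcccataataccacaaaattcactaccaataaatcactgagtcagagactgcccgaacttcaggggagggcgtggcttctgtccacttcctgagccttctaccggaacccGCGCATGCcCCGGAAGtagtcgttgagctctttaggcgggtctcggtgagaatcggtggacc
Mrps18a: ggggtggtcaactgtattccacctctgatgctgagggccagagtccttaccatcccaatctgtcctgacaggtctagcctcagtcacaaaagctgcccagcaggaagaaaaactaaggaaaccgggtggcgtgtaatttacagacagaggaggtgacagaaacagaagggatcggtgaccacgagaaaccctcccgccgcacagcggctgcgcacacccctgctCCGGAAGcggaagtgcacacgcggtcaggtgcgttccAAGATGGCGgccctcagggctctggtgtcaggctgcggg
Mrps18b: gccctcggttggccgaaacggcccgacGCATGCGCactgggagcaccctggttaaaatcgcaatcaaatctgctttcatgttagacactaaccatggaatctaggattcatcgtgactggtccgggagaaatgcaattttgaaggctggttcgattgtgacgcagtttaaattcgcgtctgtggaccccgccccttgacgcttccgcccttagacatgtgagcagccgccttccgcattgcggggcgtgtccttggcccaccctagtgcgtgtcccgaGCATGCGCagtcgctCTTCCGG
In Mrps27 the YY1 match begins at base 265 and the ETS match at base 203. Mrps18a holds the same pair, at bases 262 and 225, and its S18 paralog Mrps18b holds NRF1 matches at bases 28 and 279 and an ETS match that ends at base 300. Mrpl33 has an NRF1 match at base 239 next to an ETS match at base 248. Mrps6, the member with the highest log2 fold change, holds none of these letters in the window.

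Other parts of the mitochondrial translation machinery were described in the same way, with lists chosen with earlier results of these data known, and 0 of their genes passed the threshold over all genes, beside the 0.511% of all genes tested. Mitoribosomal proteins with other names had a median log2 fold change of 0.095 in 4 genes, and 0.051 to 0.14 over all settings tried. Among them Dap3, a GTP-binding protein of the small subunit, was at 537 and 516 in OGFRL1 livers and 513 and 451 in EGFP livers (0.13 ± 0.14). The small subunit protein Ptcd3 was at 270.5 and 293 against 197 and 273 (0.28 ± 0.19), and Chchd1 at 906 and 886 against 858 and 860.1 (0.061 ± 0.12). Of these 3, Ptcd3 alone differed by more than its standard error, and its groups overlapped at 270.5 and 273.

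Factors that assemble the ribosome and modify its RNA had a median of -0.10, with 8 of 27 above 0, and -0.17 to -0.048 over the settings. The GTPase Mtg2 was at 80.4 and 98.2 in OGFRL1 livers and 147 and 111 in EGFP livers (-0.51 ± 0.21, limma adjusted p = 0.321). Rpusd3, a pseudouridine synthase family member, was at 151 and 137 against 179.8 and 197 (-0.38 ± 0.15), and the RNA-binding Fastkd2 at 235 and 244 against 162 and 212 (0.36 ± 0.18). All 3, picked for the largest absolute moderated t, had groups that did not overlap, and they pointed in both directions. Over the whole list 13 of 27 genes had no overlap (48.1%), against 47.5% of all genes tested.

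Translation factors had a median of -0.083, with 4 of 13 above 0, which was -0.17 after quantile normalization and -0.13 to -0.034 with 1 array left out. Gfm2, an elongation factor G relative that acts in ribosome recycling, was at 92.0 and 80.7 in OGFRL1 livers and 106 and 112 in EGFP livers (-0.32 ± 0.17). Mtrf1l, a release factor, had -0.31 ± 0.21, and Lrpprc, which stabilises mitochondrial messages, -0.20 ± 0.14. Mitochondrial aminoacyl-tRNA synthetases had a median of -0.0053, with 7 of 16 above 0, and it lay on both sides of 0 over the settings (-0.10 to 0.042). Nars2 was at 104 and 98.4 in OGFRL1 livers and 143 and 129 in EGFP livers (-0.42 ± 0.16), and Aars2 at 66.7 and 60.1 against 34.8 and 48.8 (0.58 ± 0.23), while Ears2 had -0.52 ± 0.28. The synthetases, which charge tRNA for asparagine, alanine and glutamate in these 3 cases, were dimmer than the ribosomal proteins, with a median signal of 69.1.

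Genes that copy and transcribe mitochondrial DNA had a median of -0.19, with 3 of 9 above 0. It was 0.028 over all probe sets and -0.30 without OGFRL1 array 1, so its direction depends on the probe sets used. Tfam, which packages the DNA and starts transcription, was at 442 and 451 in OGFRL1 livers and 313 and 392 in EGFP livers (0.35 ± 0.16, limma adjusted p = 0.362). The polymerase Polg was at 136 and 142 against 178 and 174 (-0.33 ± 0.15), and the helicase Twnk at 117 and 118 against 156 and 138 (-0.32 ± 0.16). Regulators of mitochondrial biogenesis had a median of 0.14, with 6 of 9 above 0, and 0.043 to 0.23 over the settings. Myc, a growth regulator whose targets include ribosome genes, was at 78.6 and 76.3 in OGFRL1 livers and 45.9 and 28 in EGFP livers (1.04 ± 0.26, limma adjusted p = 0.145). The nuclear receptor Esrra had 0.37 ± 0.18, and Gabpa, the DNA-binding subunit of the ETS factor GABP, -0.30 ± 0.15.

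The cytosolic ribosome and the respiratory chain, whose core subunits the mitochondrial ribosome makes, were set beside the members by symbol. Over 46 cytosolic ribosomal protein genes tested the median log2 fold change was 0.061, with 29 above 0, and without EGFP array 2 the median was -0.071. Over 77 genes of the nuclear-encoded respiratory chain and ATP synthase it was -0.20, with 14 above 0, and both OGFRL1 arrays lay below both EGFP arrays in 51 of them (66.2%), against 18 of the 76 members (23.7%) and 20.5% of all genes tested. Neither group had a gene past the threshold. The respiratory genes were brighter, with a median signal of 2167 against 410.5 for the members, and the cytosolic ones brighter still at 3854. The spike-in controls were lower on the OGFRL1 arrays, with mean log2 fold changes of -0.43 and -0.32. The difference between the respiratory or cytosolic genes and the members was not tested, nor was the bearing of signal level on it. After quantile normalization the medians were -0.073 for the respiratory genes, 0.25 for the cytosolic ribosome and -0.0061 for the members.

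**Figure D5:**
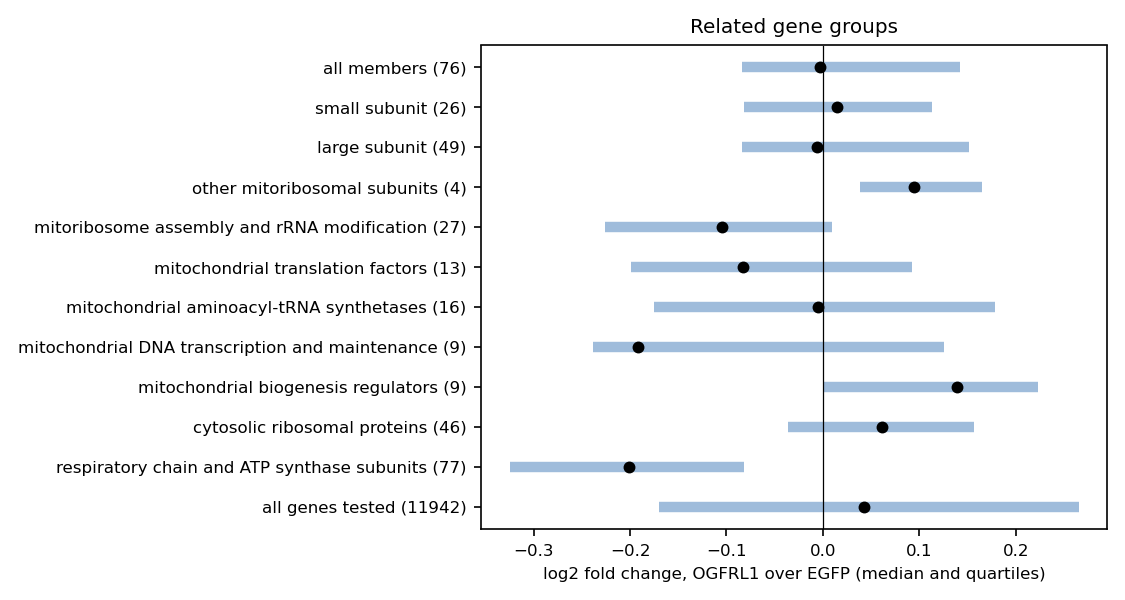
Median (points) and quartiles (bars) of the log2 fold change of OGFRL1 over EGFP livers in the members, their subunits, related mitochondrial lists, cytosolic ribosomal proteins, respiratory chain and ATP synthase subunits, and all genes tested, with the number of genes tested in brackets. The members centre on -0.0033 and the respiratory genes on -0.20.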

How the data were processed

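RNA of whole regenerating liver, 100 ng per array, was measured on 4 arrays. Per the submitters' processing notes the values are MAS5 signals, and the deposited table holds them as linear intensities for 45101 probe sets, taken as given. The scaling target, the detection calls and the software version are not given in the sources used here. Groups were taken from the labels. A gene was represented by its brightest probe set with a single symbol, and genes with a mean signal of at least 11.6, the median of all probe sets, were tested. Linear models of log2(signal + 3.51) were fitted to 11942 genes with limma 3.58.1 under R 4.3.3. Variances were moderated along a trend with intensity (lmFit and eBayes), with Benjamini-Hochberg adjustment at 0.05. The fit was tested on simulated data with changes larger than any member had. That run does not show how often changes of the members' size would be found. Having 2 arrays in each group limits the precision. The members and lists were chosen with earlier results of these data known. Members described one by one were, in each subunit, the 4 with the most positive and the 4 with the most negative moderated t and the 2 brightest, with Mrps12, Mrpl12, the S18 paralogs, Mrps30, Mrps36, Mrpl44, Mrpl45 and Mrpl41, and by name those whose probe sets differ in sign. Up to 3 genes of each related list were taken by absolute moderated t. Of the list entries, Aurkaip1, Mtrf1 and Taco1 were among those not analysed here, nor were 4 probe sets naming several genes. Alternatives changed the normalization, pseudocount, filter, probe set rule, trend and replicate block, and left out each array.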

Additional observations from a re-analysis of the deposited data

How the results depend on the processing

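The 61 genes called over the whole table became 4 after quantile normalization, 94 with 4 times the pseudocount, 21 with a stricter filter, 13 with the mean over probe sets, 0 without a filter (2179 at an unadjusted p under 0.05) and 0 without the intensity trend (1654 unadjusted). Leaving out 1 array gave 0 to 856: 619 without EGFP array 1, 856 without EGFP array 2, 0 without OGFRL1 array 1 (922 unadjusted) and 2 without OGFRL1 array 2, where the lone array is assumed to vary like the other group. Members called ranged over 0 to 1 in these fits, the 1 being Mrpl37. With a replicate block 59 genes and 0 members were called. The deviations of arrays sharing a number had a correlation of -0.28, the labels do not say that the numbers mark a shared source, and a crossed replicate block, chosen after seeing the data, called 934 genes and 0 members. The median of the members was 0.046 after median scaling, which moved the median of all genes tested to 0.090, and -0.022 to 0.027 with 1 array left out. The small subunit median was -0.011 after quantile normalization, 0.064 after median scaling, -0.0074 with the mean over probe sets and -0.0044 over all probe sets. Of 29 named members 16 kept their sign in all 13 settings. Changed signs after quantile normalization were Mrpl12 at 0.067, Mrpl39 at 0.0044 and Mrps30 at -0.027, and after median scaling Mrpl12 at 0.014 and Mrps18b at 0.020. With the mean over all probe sets of a gene, those too dim to be tested included, they were Mrpl41 at -0.0042, Mrps14 at -0.20, Mrps26 at -0.33 and Mrps9 at 0.014. All probe sets of Mrps14 and Mrps9 had enough signal to be tested. With 1 array left out, 10 members changed sign, with ranges of -0.12 to 0.051 for Mrpl12, -0.49 to 0.0043 for Mrpl14, -0.26 to 0.097 for Mrpl39, -0.11 to 0.22 for Mrpl41, -0.31 to 0.084 for Mrpl45, -0.34 to 0.026 for Mrps18a, -0.29 to 0.23 for Mrps18b, -0.18 to 0.25 for Mrps30, -0.26 to 0.028 for Mrps34 and -0.19 to 0.079 for Mrps36. The cause was not tested.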
